A study of Homo sapiens with 8 samples.

Results

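The miRNAs described here are hsa-miR-338-3p, hsa-miR-338-5p and hsa-miR-657 (miR-338-3p, miR-338-5p and miR-657 in what follows), whose hairpins lie within AATK, a gene of chromosome 17. They were taken by name from the deposited tables, and all 3 were found among the 945 miRNAs listed there (1226 features with tRNA, rRNA and adapter sequences). The set was chosen by measured values, the line difference and the etoposide responses of these libraries. Those contrasts, and those that can be built from them, are therefore given as a description without a p-value for the members.

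H1299 is an established human non-small cell lung carcinoma line derived from a lymph node. Small RNA was sequenced from 4 groups of 2 libraries each: H1299 cells with an empty vector (EV), H1299 cells stably expressing a mutant protein, R273H, from a CMV-driven plasmid (R273H), and both lines after 24 h of etoposide, a topoisomerase poison that breaks DNA. All groups share the H1299 background, but the R273H cells were grown out from G418-resistant colonies, whereas the EV cells were supplied by another laboratory, so the line difference cannot be told apart from these differences in origin. The etoposide dose is given as 10 µM in the treatment protocol and as 10 mM in the growth protocol. The authors call the replicates of the untreated groups biological. Neither they nor the labels say whether replicates were separate cultures. The p-values therefore measure only the spread between these libraries, which may be technical. The genotype labels could not be checked with small RNA reads.

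A miRNA hairpin is cut from a longer transcript by Drosha and then by Dicer, and one arm of the resulting duplex, 5p or 3p, is usually retained in Argonaute while the other is degraded. Bases 2 to 8 of the retained arm, the seed, pair with target mRNAs. Hairpins in an intron can be made from the transcript of the host gene. AATK encodes apoptosis-associated tyrosine kinase, a kinase expressed mainly in the nervous system, and miR-338 is known for its part in the maturation of oligodendrocytes.

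The mature sequences are shown because the seed and the arm distinguish the members. They are RefSeq sequences, written 5′ to 3′ with the seed in capitals.
miR-338-3p: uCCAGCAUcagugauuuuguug
miR-338-5p: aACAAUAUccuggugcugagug
miR-657: gGCAGGUUcucacccucucuagg
The 3 seeds differ from each other, and 0 other mature miRNAs in the RefSeq table share bases 2 to 8 with any of them. The hairpins show how the arms are placed, with the mature miRNAs in capitals.
MIR338: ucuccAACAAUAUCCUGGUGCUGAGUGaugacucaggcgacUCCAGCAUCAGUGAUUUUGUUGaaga
MIR657: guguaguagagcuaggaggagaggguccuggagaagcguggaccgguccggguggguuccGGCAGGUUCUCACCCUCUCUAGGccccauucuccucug
The MIR338 hairpin carries both arms in 67 bases. The MIR657 hairpin is 98 bases long, and its only annotated mature miRNA is in the 3′ part.

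In GRCh37, AATK spans chr17:79084287-79140021 on the minus strand. MIR338 is at chr17:79099683-79099749 and MIR657 at chr17:79099076-79099173, both on the minus strand, the strand of AATK. Mature miR-338-3p occupies chr17:79099687-79099708, miR-338-5p chr17:79099723-79099744 and miR-657 chr17:79099091-79099113. Both hairpins lie in the same intron, chr17:79098815-79100226, which is 1412 bases long, and neither overlaps an exon in any of the 6 AATK transcripts that span them. MIR338 is upstream of MIR657 in the direction of transcription, with 509 bases between the hairpins. On the opposite strand, MIR3065 (chr17:79099677-79099755) covers all 67 bases of MIR338, so that miR-3065-5p shares 22 bases with miR-338-3p in antisense orientation. MIR1250 lies 7246 bases upstream of MIR338 in another intron.

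**Figure D1:**
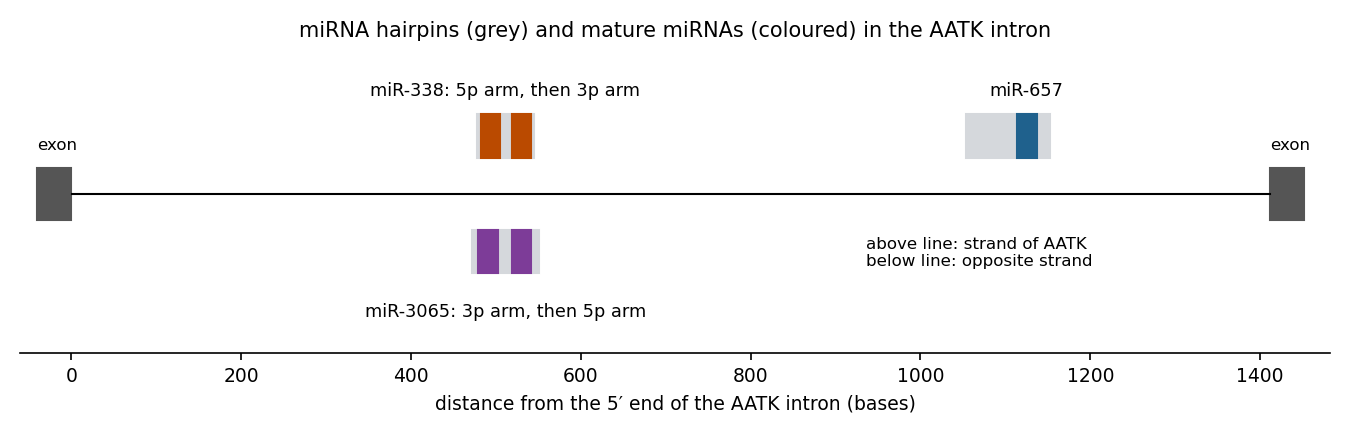
The AATK intron drawn to scale in bases from its 5′ end, with miRNA hairpins in grey and mature miRNAs in colour, the strand of AATK above the line and the opposite strand below. The boxes named exon mark only where the intron ends, and the miR-338 and miR-657 hairpins are separated by 509 bases.

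The libraries held 234545 to 579367 reads, of which 90.8% to 98.2% were on miRNAs, with miR-21-5p alone at 30.6% to 44.5% of those. Over the 8 libraries, miR-657 had 158 reads, miR-338-3p had 90 and miR-338-5p had 3. Levels are reads recovered from the deposited values, scaled to 1000000 miRNA reads per library (RPM), and their intervals are exact Poisson 95% intervals that cover counting error only. A level is a share of its library, and in bulk libraries fewer cells making a miRNA and fewer molecules per cell cannot be told apart.

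miR-657, the miRNA of the downstream hairpin, was at 98.7 and 56.0 RPM (53 and 14 reads) in the untreated EV libraries and at 11.1 and 17.2 RPM (5 and 7 reads) in the untreated R273H libraries. With etoposide it was at 56.3 and 138.0 RPM (12 and 50 reads) in EV and at 19.7 and 20.1 RPM (10 and 7 reads) in R273H. Every EV library was above every R273H library, with or without etoposide. The mean was 87.3 ± 39.3 RPM (SD, n = 4) in EV and 17.02 ± 4.17 RPM (SD, n = 4) in R273H. Of 334 miRNAs with a mean of at least 3 reads, 23 (6.89%) had all 4 EV libraries above all 4 R273H libraries in RPM, and miR-657 was among them. Ordered by group mean, miR-657 was highest in EV with etoposide (97.2 ± 57.8 RPM), followed by untreated EV (77.4 ± 30.2), R273H with etoposide (19.9 ± 0.233) and untreated R273H (14.1 ± 4.35, SD, n = 2 each). The EV groups overlapped each other. The R273H libraries with etoposide were above the untreated ones, but by less than the counting error of their 5 to 10 reads. The order within R273H also depends on the scaling. In the deposited values, which use size factors, the means without and with etoposide were 7.46 and 6.72 in R273H. In EV they were 27.69 and 30.32. Both EV libraries with etoposide also stood apart from each other, since their intervals, 29.1 to 98.4 RPM and 102.4 to 182.0 RPM, did not overlap.

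miR-338-3p, the arm of miR-338 that is usually the more abundant, was at 7.45 and 16.0 RPM (4 reads each) in untreated EV and at 4.43 and 12.3 RPM (2 and 5 reads) in untreated R273H. With etoposide it was at 61.0 and 35.9 RPM (13 reads each) in EV and at 37.5 and 86.0 RPM (19 and 30 reads) in R273H. Every library with etoposide was above every untreated library, whichever the line. The mean over both lines was 55.1 ± 23.6 RPM (SD, n = 4) with etoposide and 10.1 ± 5.13 RPM (SD, n = 4) without. Of the 334 miRNAs, 24 (7.19%) had all 4 etoposide libraries above all 4 untreated ones in RPM, and miR-338-3p was one of them. In the other direction, 0 (0.0%) had all untreated libraries above all etoposide libraries. The rise of miR-338-3p was larger in RPM than in the deposited values, which use size factors. Its deposited means without and with etoposide were 4.315 and 12.59 in EV, and 4.28 and 18.96 in R273H. How far the scaling by library total enters the RPM rise and these counts was not tested. The lowest etoposide library, at 35.9 RPM, stood against the highest untreated library, at 16.0 RPM. Ordered by group mean, R273H with etoposide (61.8 ± 34.3 RPM) was followed by EV with etoposide (48.5 ± 17.8), untreated EV (11.7 ± 6.06) and untreated R273H (8.36 ± 5.56, SD, n = 2 each). Within each treatment the libraries of both lines overlapped. The untreated levels rest on 2 to 5 reads per library, and 1 of them, in R273H, was below 3 reads.

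miR-338-5p, the other arm of the hairpin, had 1 read in each of 3 libraries (EV with etoposide replicate 2, R273H untreated replicate 1 and R273H with etoposide replicate 1) and 0 reads in the other 5. Its highest level was 2.76 RPM. A count of 0 was taken to allow up to 3 reads, or 5.59 to 14.1 RPM in the 5 libraries at 0, and the exact Poisson 95% intervals of those libraries reach further, to between 6.87 and 17.3 RPM. Therefore, differences between groups were not detectable at this depth. It did not reach the minimum level for testing in any comparison.

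**Figure D2:**
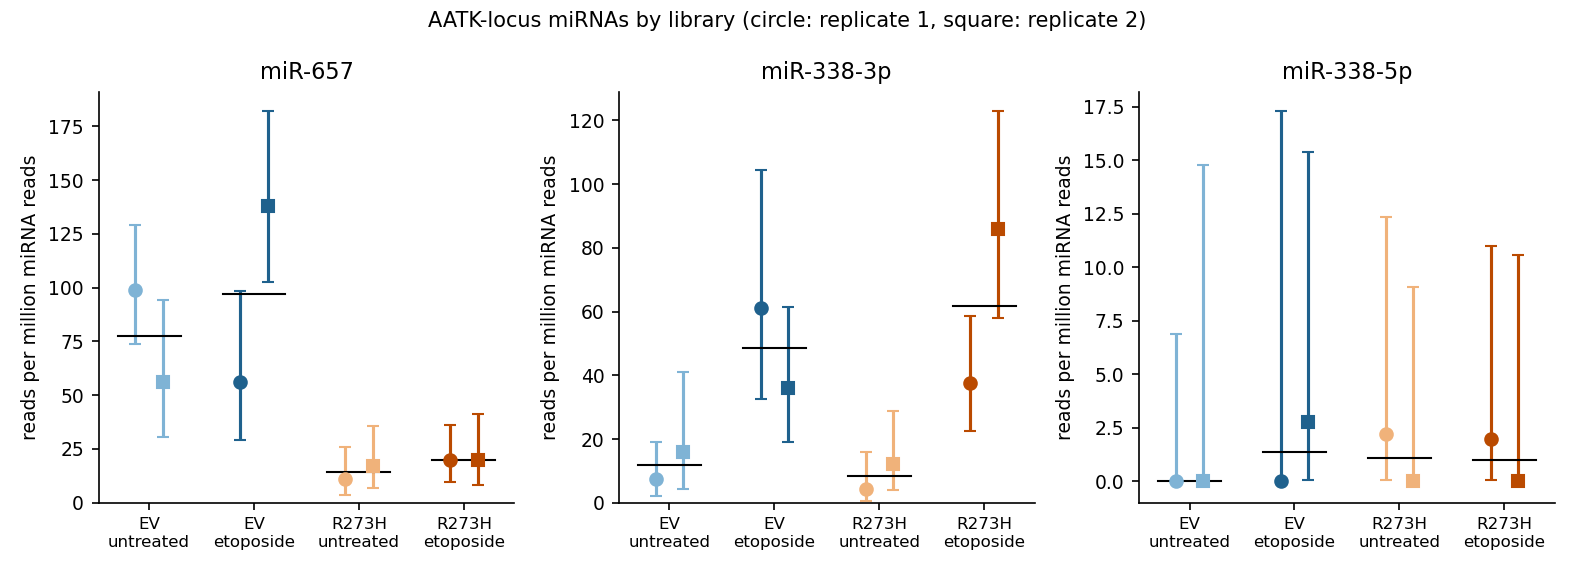
RPM on linear axes for each member, with circles for replicate 1, squares for replicate 2, bars for exact Poisson 95% intervals and black lines for the means of 2 libraries. The EV libraries of miR-657 sit at 56.0 RPM or above and the R273H libraries at 20.1 RPM or below, the etoposide libraries of miR-338-3p sit at 35.9 RPM or above, and miR-338-5p does not exceed 2.76 RPM.

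The first question of the series was which miRNAs differ between R273H and EV cells without DNA damage. In the deposited values for this comparison, read counts divided by a size factor per library, miR-657 was at 36.69 and 22.31 in EV and at 5.13 and 6.22 in R273H. Its log2 fold change on the log2(normalized count + 1) scale was -2.16 (SE 0.51), or 4.46-fold lower in R273H. miR-338-3p was at 2.77 and 6.38 in EV and at 2.05 and 4.44 in R273H, with a log2 fold change of -0.37 (SE 0.65). The libraries of miR-657 did not overlap between the lines, and those of miR-338-3p did. The share of all miRNAs without overlap in 2 against 2 libraries was not counted, so nothing is read from this. The miRNAs called by limma, with an unadjusted p-value under 0.05 and a change of at least 2-fold, included miR-657 and not miR-338-3p, and called miRNAs were 27.3% of the 304 tested (10.9% lower and 16.4% higher). Since the members were chosen with this contrast known, nothing is read from that count. Over every miRNA tested, the log2 fold changes had a median of 0.10.

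The second question was how each line responds to etoposide. In the deposited values for EV, miR-338-3p was at 2.58 and 6.05 without and at 12.4 and 12.79 with etoposide, a log2 fold change of 1.44 (SE 0.69), or 2.71-fold higher. In R273H it was at 2.66 and 5.9 without and at 15.66 and 22.27 with etoposide, a log2 fold change of 1.97 (SE 0.48), or 3.92-fold higher. The libraries did not overlap in either line, but again the share of all miRNAs without overlap was not counted. miR-657 was at 34.18 and 21.19 without and at 11.44 and 49.2 with etoposide in EV, a log2 fold change of -0.16 (SE 0.50). In R273H it was at 6.65 and 8.27 without and at 8.24 and 5.2 with etoposide, a log2 fold change of -0.15 (SE 0.50). The miR-657 libraries overlapped in both lines. By the same criteria, miR-338-3p was among the called miRNAs in both lines and miR-657 in neither. In EV the miR-338-3p call was lost with DESeq2, with a replicate block and with a pseudocount of 5. It was also lost without any 1 of the libraries EV untreated replicate 1, EV etoposide replicate 1 and EV etoposide replicate 2. In R273H the call was kept, but the alternatives refit the same libraries in a contrast that the choice used. They give no support to the call, and no difference between the lines is read from it. Called miRNAs were 6.76% of the 296 tested in EV (2.36% higher and 4.39% lower) and 6.16% of the 341 tested in R273H (2.93% higher and 3.23% lower), and again nothing is read from the members' count. After Benjamini-Hochberg adjustment, 2 miRNAs (0.676%) in EV and 0 (0.0%) in R273H had an adjusted p under 0.05 in limma. The tables were normalized separately, so that the same untreated library has another value in each, and the values are compared only within a table.

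**Figure D3:**
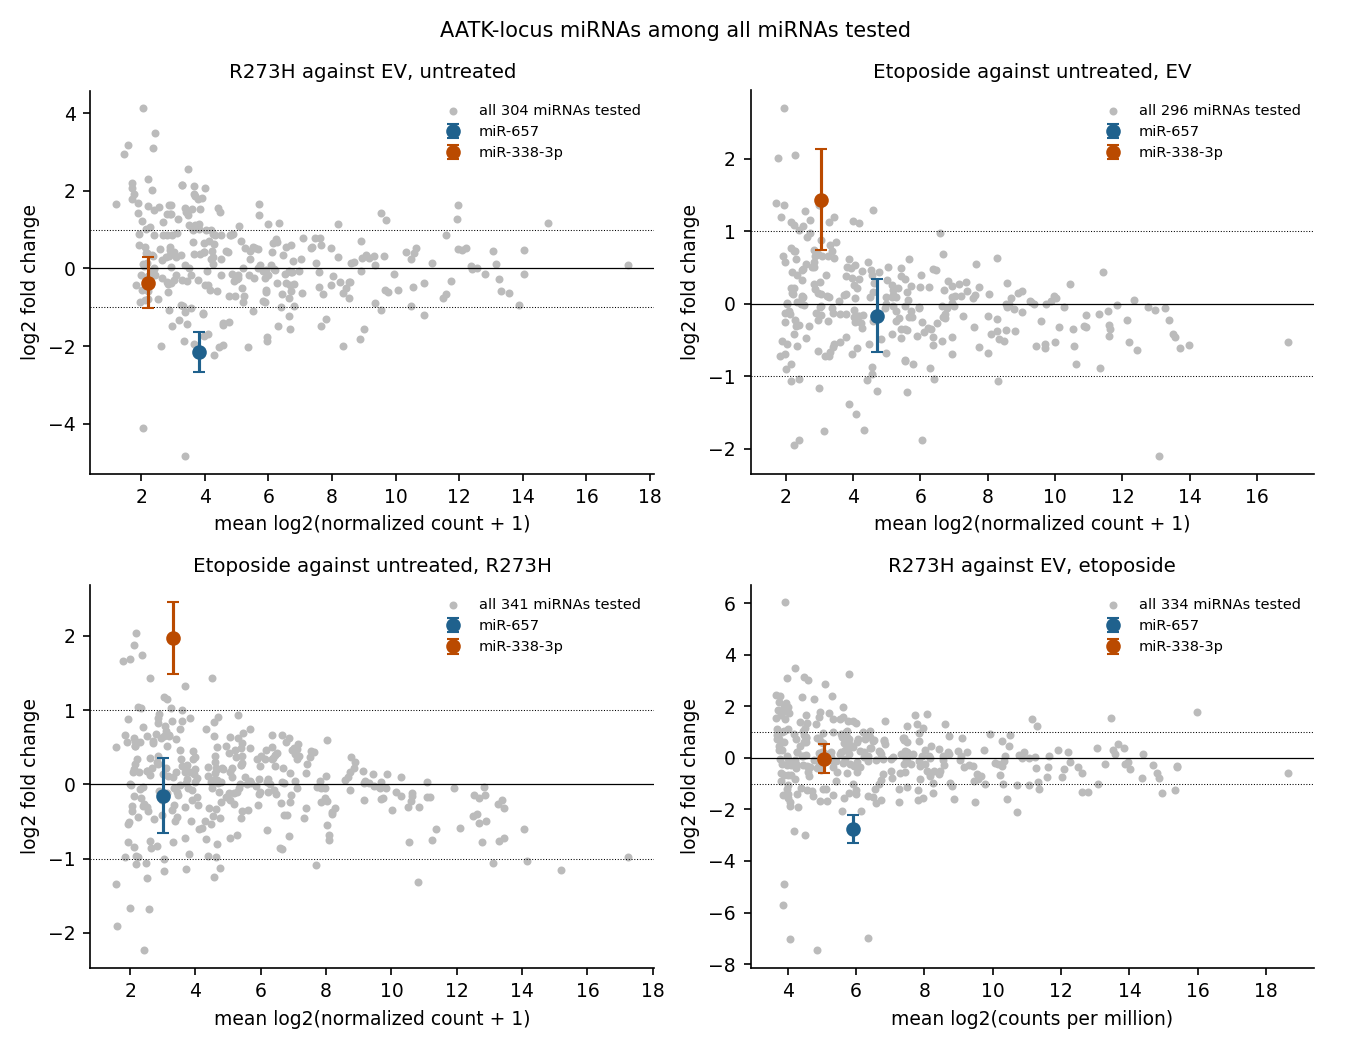
Log2 fold change against mean level for every miRNA tested (grey) in the untreated line comparison, the etoposide responses of EV and R273H, and the line comparison under etoposide, with miR-657 and miR-338-3p in colour, bars of 1 SE and dotted lines at a 2-fold change. miR-657 lies at -2.16 and -2.77 in the line comparisons and near 0 in the etoposide responses, and miR-338-3p lies at 1.44 and 1.97 in the etoposide responses and near 0 in the line comparison under etoposide.

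The line difference was also estimated in the etoposide libraries, with edgeR on the recovered reads of all 8 libraries. It follows from the untreated line difference and the etoposide responses, so it too is a description of values that the choice used. miR-657 was 6.80-fold lower in R273H, with a log2 fold change of -2.77 (SE 0.55). Both EV libraries were above both R273H libraries in RPM, but the share of all miRNAs for which this held was not counted. Without replicate 2 of EV with etoposide, the library at 138.0 RPM, the log2 fold change was -1.45, and without replicate 1 of that group it was -3.44. The size therefore rests on which of these libraries is included, while the direction was the same in all 14 alternatives run. Those that left out an untreated library hardly bear on this, since such libraries are not compared in this contrast (-2.77 to -2.76). miR-338-3p had a log2 fold change of -0.03 (SE 0.56, 95% interval -1.12 to 1.06), an interval that leaves room for a difference of more than 2-fold either way. Called miRNAs, of which miR-657 was one and miR-338-3p was not, were 25.4% of the 334 in this comparison (15.3% lower and 10.2% higher), and 22.5% had an adjusted p under 0.05. Nothing is read from the members' count.

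The difference between the etoposide responses of the lines, 1 response minus the other, was 0.41 on the log2 scale for miR-338-3p (R273H minus EV, SE 1.03, 95% interval -1.61 to 2.44) and -0.19 for miR-657 (SE 0.82, 95% interval -1.80 to 1.42). Both intervals include 0 and are wide, so the responses of the lines could differ by more than 2-fold in either direction. By edgeR 3.59% of the 334 miRNAs were called in this contrast (0.898% higher and 2.69% lower), and neither miR-657 nor miR-338-3p was. Over all 334 miRNAs, 0 (0.0%) had an adjusted p under 0.05 by edgeR and 0 by DESeq2, against 12 with an unadjusted p under 0.05 in edgeR.

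The members can also be compared within a library, where no scaling between libraries enters. As a share of the reads of miR-657 and miR-338 together, miR-657 took 93.0% (53 of 57 reads, Wilson 95% interval 83.3 to 97.2) and 77.8% (14 of 18) in untreated EV, and 62.5% (5 of 8) and 58.3% (7 of 12) in untreated R273H. With etoposide it took 48.0% (12 of 25, 30.0 to 66.5) and 78.1% (50 of 64, 66.6 to 86.5) in EV, and 33.3% (10 of 30, 19.2 to 51.2) and 18.9% (7 of 37, 9.48 to 34.2) in R273H. In EV the shares overlapped between treatments. In R273H both etoposide shares were below both untreated shares, but the Wilson intervals overlapped. How often other pairs of miRNAs separate in this way was not counted, so nothing is read from it. In the untreated R273H libraries 8 and 12 reads leave intervals that span from 30.6% to 86.3%. These shares are built from the levels above and are a description, without a test. The sum of the locus was 106.1 and 72.1 RPM in untreated EV, 117.4 and 176.7 RPM in EV with etoposide, 17.7 and 29.5 RPM in untreated R273H, and 59.2 and 106.1 RPM in R273H with etoposide.

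**Figure D4:**
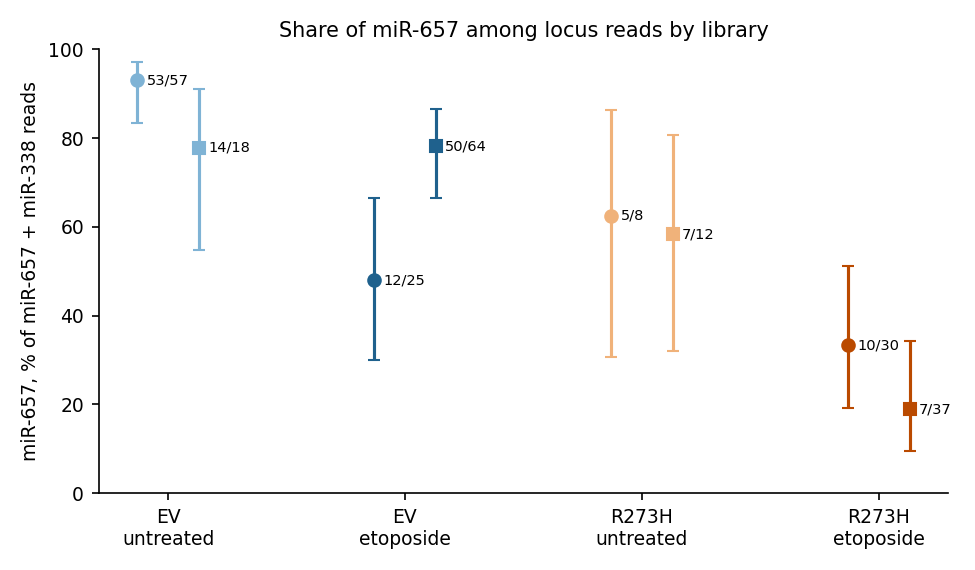
Reads of miR-657 as a percent of the reads of miR-657 and miR-338 in each library (circles for replicate 1, squares for replicate 2), with Wilson 95% intervals and the reads beside each point. The share runs from 93.0% in an untreated EV library to 18.9% in an R273H library with etoposide.

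The share of each arm in the miR-338 reads is built from values that the choice used. It is a description, without a test. Of the 93 miR-338 reads, 90 were miR-338-3p. The 3p share was 100%, 100%, 100% and 92.9% in the 4 EV libraries and 66.7%, 100%, 95% and 100% in the 4 R273H libraries. With untreated and etoposide libraries pooled, the mean was 98.2% ± 3.57 (SD, n = 4) in EV and 90.4% ± 16.0 (SD, n = 4) in R273H. The difference of -7.80 percentage points was smaller than the SD of the R273H libraries. The share of 66.7% comes from 3 reads, and without that library the difference was 0.118 percentage points. The 3p arm was therefore the main arm in reads of both lines, and a difference in arm use was not detectable at this depth.

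The other miRNAs annotated at AATK were near the limit of detection. miR-3065-3p, antisense to miR-338-5p, had 14 reads over the 8 libraries, and miR-3065-5p, antisense to miR-338-3p, had 5. miR-1250-5p had 4 reads. The miR-3065-3p reads were 1 and 1 in untreated EV, 3 and 0 in EV with etoposide, 0 and 1 in untreated R273H, and 3 and 5 in R273H with etoposide. The number of reads in 1 library did not exceed 5 for any of these miRNAs, and 0 of the 3 reached the minimum level for a test. The strand setting of the miRNA alignment is not given in the sources used here, so reads of miR-338 and of its antisense partner may not be fully separate.

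The miRNAs with the most similar patterns are given as a description over 8 libraries that share their groups and depths. Among 236 candidates with a mean of at least 10 reads, Pearson's r of log2(RPM + 1) with miR-338-3p was highest for miR-101-3p (r = 0.985), miR-26b-5p (r = 0.954) and miR-34a-5p (r = 0.943). Their mean levels without and with etoposide were 2492 and 3949 RPM for miR-101-3p, 753.9 and 1507 RPM for miR-26b-5p, and 47.2 and 161.6 RPM for miR-34a-5p. In the deposited values of EV, their log2 fold changes with etoposide were 0.11 (SE 0.37), 0.63 (SE 0.35) and 1.29 (SE 0.51), in that order. A shift that the total of a library gives to all its miRNAs enters both r and these RPM levels. For miR-657 the highest values were with miR-222-3p (r = 0.973), miR-378d (r = 0.928) and miR-31-5p (r = 0.902). Their mean levels in EV and R273H were 10063 and 6256 RPM for miR-222-3p, 60.7 and 22.5 RPM for miR-378d, and 51589 and 26586 RPM for miR-31-5p. The leading miRNAs of miR-657 and miR-338-3p were different, and neither list held the other member.

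Since AATK and miR-338 are best known from the nervous system, other miRNAs enriched there were examined from a list that holds miR-9, miR-124, miR-128, miR-129, miR-132, miR-137, miR-138, miR-153 and miR-219. No miR-124 or miR-153 miRNA reached a test in any comparison. For miR-219 only miR-219b-5p reached a test, and not in the untreated line comparison. Of 18 listed miRNAs in the tables, 8 could be tested in the untreated line comparison, where 1 was called higher and 3 lower in R273H (background 16.4% and 10.9%). miR-132-3p, which responds to neuronal activity, had a log2 fold change of 1.45 (SE 0.46). miR-9-5p and miR-9-3p, the arms of a neural progenitor miRNA, had -1.55 (SE 0.36) and -1.38 (SE 0.45), and miR-138-5p had -1.87 (SE 0.38). The median of the 8 was -0.32, beside 0.10 for all tested miRNAs. Under etoposide, 0 of 11 were called higher and 4 lower in R273H, namely miR-9-5p, miR-9-3p, miR-138-5p and miR-129-1-3p (background 10.2% and 15.3%). The last was named after its value was seen, and its reads may be split with those of the closely similar miR-129-2-3p. The median of these 11 was 0.03, beside 0.05 for all tested miRNAs. In the etoposide response of EV, 2 of 10 were called higher, miR-129-1-3p and miR-219b-5p, and 1 lower, miR-129-2-3p (background 2.36% and 4.39%). In R273H 0 of 11 were called in either direction (background 2.93% and 3.23%). The difference between the responses was called higher for 1 of 11, miR-129-2-3p, and lower for 1, miR-129-1-3p (background 0.898% and 2.69%). The miR-129 calls go in opposite directions, and the reads may be split between these similar arms. Nothing is therefore read from these counts.

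Other miRNAs of chromosome 17 were counted to set the locus beside its chromosome. In the untreated line comparison 4 of 27 were called higher and 1 lower in R273H, beside 16.4% and 10.9% of all miRNAs tested, and their median log2 fold change was 0.20 beside 0.10. Under etoposide 3 of 29 were called higher and 4 lower, beside 10.2% and 15.3%, and the median was 0.16 beside 0.05. In EV the etoposide response was called higher for 0 of 26 and lower for 3, beside 2.36% and 4.39%, with a median of 0.09 beside -0.03. In R273H it was called higher for 1 of 29 and lower for 0, beside 2.93% and 3.23%, with a median of 0.03 beside 0.02. The difference between the responses was called for 0 of 29, beside 3.59%, with a median of 0.05 beside 0.01.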

How the data were processed

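The 8 small RNA libraries, 2 for each of 4 groups (EV and R273H, with and without etoposide), were read on an Ion PGM instrument. The authors kept trimmed reads of 17 to 35 bases, aligned them with SHRiMP to miRBase, adjusted miRNA counts with reads mapped by Novoalign to GRCh37 (hg19), and used DESeq to divide the counts of each library by its size factor. The deposited values are this normalized signal, in 3 separately normalized tables. The other deposited tables hold the authors' own fold changes and p-values and were not used. Dividing by the value of 1 read gave a whole number (within 0.1 read) for 100% of values, and these reads were used.

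Each deposited comparison was fitted with limma 3.58.1 (R 4.3.3, intensity trend) on log2(normalized count + 1), which understates changes of low miRNAs, for miRNAs with a mean of at least 3. The line difference under etoposide and the difference between responses were fitted on recovered reads of all 8 libraries with edgeR 4.0.16 (quasi-likelihood test, TMM, mean of at least 3 reads), with Benjamini-Hochberg adjustment over all miRNAs tested. The SEs and intervals of these edgeR fits were computed back from the fold change and the p-value of the test. They are therefore no separate support for a member. Called means an unadjusted p-value under 0.05 and a change of at least 2-fold. DESeq2 1.42.0, other pseudocounts, filters and scalings, a replicate block and each library left out were alternatives. The limma fit and its edgeR and DESeq2 alternatives were run on simulated reads for the untreated line comparison only. That simulation used a fixed dispersion that was not taken from these libraries. The contrasts over all 8 libraries were not simulated. Exact permutation of 2 against 2 libraries has a smallest p of 0.333. Replicates differed by more than sampling noise (chi-square per degree of freedom 32.3 to 70.4).

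The members and lists were chosen with earlier results of these data known, and since both contrasts fitted with edgeR follow from values that the choice used, no p-value is given for the members. Named are the members, the other miRNAs of AATK, the 3 miRNAs most correlated with each tested member, miRNAs sharing a seed with a member, and the nervous-system miRNAs called in the untreated line comparison. Nervous-system miRNAs called only in other comparisons were named after their values were seen. Sequences are from the RefSeq table (GRCh38), matched by name (825 of 945 miRNAs), and placed by exact match to GRCh37. GENCODE 44 lifted to GRCh37 gave the introns, but it lists MIR338 at the span and strand of MIR3065, so its position was not used for that hairpin. Intervals and shares were computed in Python 3.11.15 with scipy 1.17.1, pandas 2.3.3 and numpy 2.4.6. The gene that carries the mutation is not reported here.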

Additional observations from a re-analysis of the deposited data

How the results depend on the processing

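In the untreated line comparison miR-657 kept its direction in 13 of 13 alternatives. The other filters, the fit without trend and the replicate block cannot change its log2 fold change, which stayed at -2.16. It was -1.66 with a pseudocount of 5 and -2.59 with edgeR. With each library left out it was -2.50 to -1.81, where miR-338-3p ranged from -0.86 to 0.11. The count of called miRNAs, 83, was 49 (without R273H untreated replicate 1) to 77 with a library left out and 59 (DESeq2) to 112 (no filter) in the other alternatives. In EV the etoposide response of miR-338-3p was 0.94 with a pseudocount of 5 and 0.95 to 1.92 with a library left out, and that of miR-657 was -1.17 to 0.85. The 20 calls there became 13 with a pseudocount of 5, 10 at a mean of at least 10, 12 with DESeq2 and 10 to 19 with a library left out (10 without EV untreated replicate 2). In R273H the response of miR-338-3p was 1.38 with a pseudocount of 5 and 1.51 to 2.43 with a library left out, and that of miR-657 was -0.44 to 0.13. The 21 calls became 11 with a pseudocount of 5, 33 with no filter, 10 at a mean of at least 10, 10 with DESeq2, and 9 (without R273H etoposide replicate 2) to 32 (without R273H untreated replicate 1). Under etoposide the line difference of miR-657 was -3.44 to -1.45 with a library left out. That of miR-338-3p had no fixed sign: 0.018 with DESeq2, 0.36 with library totals only (which moved the median of all miRNAs by 0.31), 0.13 with no filter, 0.028 at a mean of at least 10 reads and -0.36 to 0.25 with a library left out. The 85 calls became 71 to 101 with a library left out and 59 (library totals) to 110 (no filter) in the other alternatives. For the difference between responses the 12 calls became 5 with DESeq2, 5 with library totals, 32 with no filter, 6 at a mean of at least 10 reads and 8 to 28 with a library left out (28 without EV etoposide replicate 1). There miR-657 was 0.16 with library totals and -0.85 to 1.14 with a library left out, and miR-338-3p -0.10 to 1.12. The 3p share difference ranged from -10.99 to 0.118 percentage points. The cause of these changes was not tested.

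Replicate numbers did not pair the libraries: correlations of same-numbered deviations ran from -0.379 to 0.258 over 237 miRNAs. With the replicate block the calls were 75, 16, 17, 79 and 11 in the order above, and miR-657 under etoposide was at -2.69. Crossing the numbers in R273H with etoposide, chosen after seeing the data, gave 85 and 10 calls in the comparisons on recovered reads, and 0.006 for the difference between responses of miR-657.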
